A study of Mus musculus with 4 samples.

Results

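The peaks of JunB, BATF and IRF4 were examined at 37 genes of proximal T cell receptor (TCR) signalling, out of 22380 protein-coding genes annotated on the mm9 mouse genome. The genes were a named list, and all 37 were found in the annotation. A peak was assigned to a gene when its centre lay within 20 kb of any annotated transcription start site (TSS) of that gene. By their roles, 6 encode chains of the receptor or its coreceptors, 4 are kinases, 10 are adaptors and effectors, 12 are negative regulators and 5 are genes induced by receptor signals.

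The study asked how the AP-1 factor JunB shapes IRF4-binding in regulatory T (Treg) cells. CD4+CD25+ Treg cells from spleens of C57BL/6 mice were activated for 60 h in every group with IL-2 and antibodies to CD3 and CD28, and chromatin immunoprecipitation-sequencing (ChIP-seq) was performed. The mice of the study were 6 to 12 weeks old. There were 4 libraries, 1 per condition: JunB, BATF and IRF4 in Junb-sufficient cells, and IRF4 in Junb-deficient cells. The labels give the genotypes as Foxp3cre JUNB+/+ and Foxp3cre JUNBFl/Fl, whereas the study's description of this experiment gives Cd4-Cre Junb fl/fl mice for the deficient cells and Junb fl/fl mice for the others. Foxp3-Cre acts in Treg cells and Cd4-Cre in all T cells that pass the stage at which Cd4 is expressed, so the cells that lacked Junb in the donor mice differ between these accounts. An antibody field in the labels also exchanges BATF and IRF4 in the Junb-sufficient libraries, and the titles, with which the study's own file list runs, were followed. Peak lists cannot show the deletion of Junb itself. Between 21127029 and 27399986 tags were recorded per library, which gave 13570 BATF peaks, 29659 JunB peaks, and 31093 and 29033 IRF4 peaks in Junb-sufficient and Junb-deficient cells.

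When the TCR binds antigen, the kinase Lck phosphorylates the CD3 and zeta chains, Zap70 docks on them, and Zap70 in turn phosphorylates the adaptors Lat and Lcp2 (SLP-76), on which Plcg1, Vav1 and other effectors assemble. Phosphatases, ubiquitin ligases and diacylglycerol kinases dampen the signal, and its strength is read out by early genes such as Nr4a1 and Egr2. In Treg cells TCR signals are needed for the effector state, in which IRF4 and AP-1 factors are induced, and IRF4 with BATF-Jun dimers can bind composite DNA elements called AICEs.

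JunB, BATF and IRF4 peaks were found at most of these genes. A JunB peak was present at 30 of 37 genes (81.1%), compared with 42.1% of all protein-coding genes. A BATF peak was present at 28 (75.7%, against 30.2%), an IRF4 peak in Junb-sufficient cells at 36 (97.3%, against 60.3%), and an IRF4 peak in Junb-deficient cells at 34 (91.9%, against 59.8%). Peaks of all 4 libraries were found at 24 of the genes (64.9%), compared with 23.4% of all genes, and every one of the 37 had a peak in at least 1 list. The 7 without a JunB peak were Cd4, Lat, Vav1, Ptpn6, Csk, Dgkz and Cd5, and all of these but Cd5 had an IRF4 peak in Junb-sufficient cells. The genes occupy long stretches with several TSSs, so peaks were also counted per length. Within the 2155 kb that lie within 20 kb of a TSS of the 37 genes there were 122 JunB peaks, or 5.66 per 100 kb, compared with 1.60 per 100 kb around all protein-coding genes. IRF4 gave 108 peaks (5.01 per 100 kb, against 2.15) and BATF 47 peaks (2.18 per 100 kb, against 0.853). In Junb-deficient cells there were 97 IRF4 peaks (4.50 per 100 kb, against 2.05). With 1 library per condition analysed no difference could be tested, and shares of peaks are given with exact binomial 95% intervals, which cover counting error only.

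**Figure D1:**
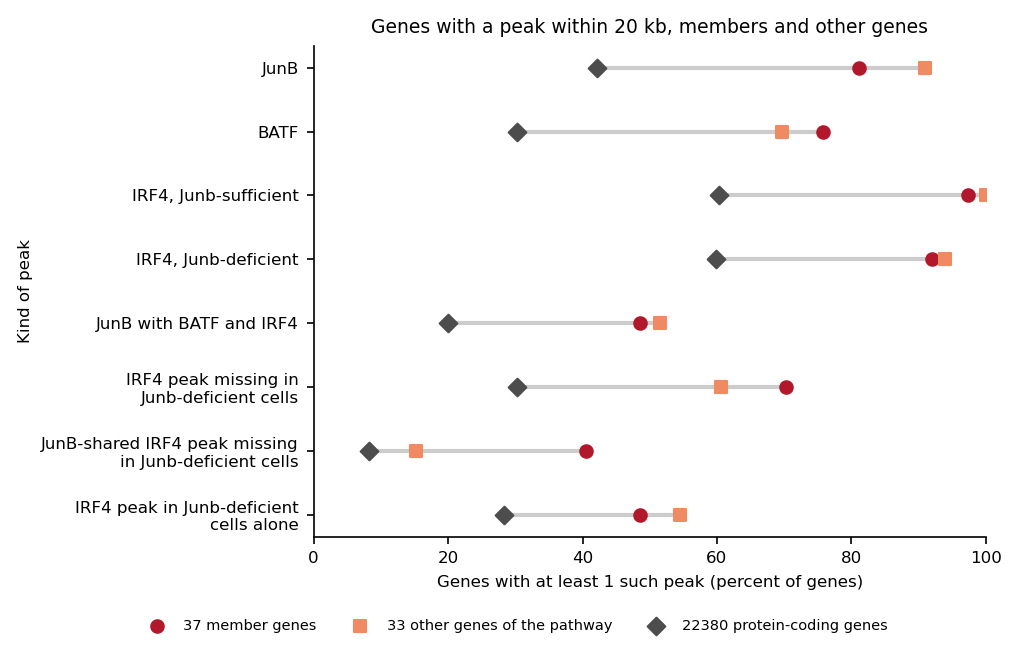
Percent of genes with at least 1 peak of each kind within 20 kb of a TSS (x axis), for the 37 TCR signalling genes (circles), 33 other genes of the pathway (squares) and all 22380 protein-coding genes (diamonds). For each kind the TCR signalling genes sit to the right of all genes, and they stand furthest from the other pathway genes for JunB-shared IRF4 peaks missing in Junb-deficient cells (40.5% against 15.2%).

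Another 33 genes that act in the same pathway, among them the phosphatase Ptprc, had similar densities. A JunB peak was found at 30 of the 33 (90.9%) and a Junb-sufficient IRF4 peak at all 33, with 4.51 JunB peaks and 4.87 IRF4 peaks per 100 kb. A high density of peaks was thus seen in both lists. Loci of the Treg markers Foxp3, Il2ra, Ikzf2 and Ctla4 all had JunB and IRF4 peaks, and 5 of 10 marker genes of other blood cells had a JunB peak, of which Itgam had 5. The B cell marker Ms4a1 and the myeloid markers Lyz2 and Csf1r had no peak in any list. Peaks do not measure expression, and the part of other cells in the peaks was not tested.

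Among the receptor chains and coreceptors, JunB peaks were most numerous at Cd28, which encodes the main costimulatory receptor. Cd28 had 11 JunB peaks within 20 kb of its TSSs, and as many were found at 0.174% of all genes. Of these 11, 8 were free of both BATF and IRF4 peaks, 2 overlapped BATF alone and 1 overlapped both. Thus most JunB peaks at Cd28, mainly in its introns, had no BATF or IRF4 peak listed on them in Junb-sufficient cells. Of the 8, however, 2 overlapped an IRF4 peak of Junb-deficient cells. The 2 JunB peaks with BATF alone lay on the same BATF peak. IRF4 gave 2 peaks at Cd28 in Junb-sufficient cells and 4 in Junb-deficient cells, and only the peak upstream of the gene, at the JunB peak that overlapped both factors, was common to both lists. The CD3 chains, which carry the signalling motifs of the receptor, had 4 JunB peaks at each of Cd3e, Cd3d and Cd3g, and Cd247, which encodes the zeta chain, also had 4. The genes Cd3d and Cd3g lie next to each other and shared all of their 4 JunB peaks, 2 BATF peaks and 3 IRF4 peaks, so they are not separate observations. All 3 shared IRF4 peaks were kept in Junb-deficient cells by an overlap of at least 1 bp. Near the TSS of Cd3g, however, the peaks of both genotypes overlapped only at their ends (chr9:44788291-44788903 and chr9:44788811-44789415). The Junb-deficient peak there did not overlap the JunB peak. Another of the 3 was closest to a TSS of Ube4a. Cd4, the coreceptor that brings Lck to the receptor, had no JunB peak and 1 BATF peak, which was closer to a TSS of Lag3.

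At Cd3e, 2 sites upstream of the gene had JunB, BATF and IRF4 peaks, and they differed in Junb-deficient cells. The site at chr9:44831876-44832026 (mm9, plus strand), -14278 bp from the TSS, held the JunB peak of these genes that stood highest in its list, at place 368 of 29659. Its IRF4 peak stood at place 1542 of 31093 and was kept, although it fell from 4.96% to 12.3% of the way down the list. At the other site, chr9:44827169-44827319, -9571 bp from the TSS, the JunB peak was at place 1336 and the IRF4 peak at place 1642, and no overlapping IRF4 peak was listed in Junb-deficient cells. The nearest Junb-deficient IRF4 peak was 4699 bp away. The sequences of both JunB peaks are shown because the pair lies in 1 locus and differs in whether IRF4 was kept. Capitals mark matches to the AP-1 consensus (TGA, C or G, TCA) and to the AICE consensus, which joins an AP-1 site to an IRF site and can overlap an AP-1 match.
Cd3e kept site: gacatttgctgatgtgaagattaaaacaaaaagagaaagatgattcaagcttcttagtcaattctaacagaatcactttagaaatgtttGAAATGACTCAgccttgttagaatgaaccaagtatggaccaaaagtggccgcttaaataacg
Cd3e missing site: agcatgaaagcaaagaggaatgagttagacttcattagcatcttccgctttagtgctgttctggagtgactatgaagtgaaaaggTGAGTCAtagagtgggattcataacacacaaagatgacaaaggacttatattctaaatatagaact
The kept site had an AICE match with an AP-1 match inside it, and the missing site had an AP-1 match alone.

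Of the 4 kinases, Fyn, a Src-family kinase that acts beside Lck, had the largest number of JunB peaks among the 37 genes. There were 13 JunB, 5 BATF and 7 IRF4 peaks over its 177 kb of TSS windows, and 13 or more JunB peaks were found at 0.0715% of all genes. All 5 BATF peaks lay at sites with JunB and IRF4, and 7 of the 13 JunB peaks overlapped neither factor. IRF4 peaks numbered 7 also in Junb-deficient cells, but the lists were not the same. In Junb-deficient cells 4 of the Junb-sufficient IRF4 peaks were kept, 3 were missing, and 3 others had no Junb-sufficient counterpart. The JunB peaks at chr10:39240021-39240171 (IRF4 kept), chr10:39150722-39150872 (IRF4 missing) and chr10:39192107-39192257 (IRF4 in Junb-deficient cells alone), all in introns of Fyn, are shown on the mm9 plus strand with AP-1 and AICE matches in capitals, since all 3 outcomes occurred within this gene.
Fyn kept site: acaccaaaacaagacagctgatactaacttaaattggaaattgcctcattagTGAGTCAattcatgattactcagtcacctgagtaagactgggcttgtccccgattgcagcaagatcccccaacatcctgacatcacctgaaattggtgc
Fyn missing site: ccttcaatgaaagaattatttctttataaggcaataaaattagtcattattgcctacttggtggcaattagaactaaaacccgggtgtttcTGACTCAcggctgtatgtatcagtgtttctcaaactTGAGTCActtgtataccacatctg
Fyn deficient-only site: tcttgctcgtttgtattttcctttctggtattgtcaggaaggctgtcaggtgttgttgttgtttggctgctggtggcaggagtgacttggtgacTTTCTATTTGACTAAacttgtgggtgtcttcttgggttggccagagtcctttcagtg
The kept site had 1 AP-1 match and the missing site had 2. The site with IRF4 in Junb-deficient cells alone had an AICE match and no AP-1 match, and neither BATF nor IRF4 was listed there in Junb-sufficient cells.

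Prkcq, which encodes protein kinase C theta, had 5 JunB and 5 IRF4 peaks, and 2 of its IRF4 peaks were missing in Junb-deficient cells. Lck and Zap70, the kinases at the head of the cascade, had 3 and 1 JunB peaks. Both kept every IRF4 peak, but those at Lck were closer to a TSS of Hdac1 or Fam167b. Lck had 2 more in the Junb-deficient list alone, 1 of them at its TSS and 1 closer to Hdac1. These 2 stood at 68.2% of the way down the list.

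The adaptors and effectors had the lowest density of BATF peaks of the 5 roles, with 6 peaks over 10 genes (1.19 per 100 kb). Lcp2, the adaptor SLP-76, had 6 JunB and 5 IRF4 peaks, and 4 of the 5 IRF4 peaks were kept. Lat, the membrane adaptor that Zap70 phosphorylates, and Vav1, an exchange factor for Rac, had no JunB or BATF peak, but had 3 and 2 IRF4 peaks. Bcl10, which with Malt1 forms a complex that activates NF-kB, had a site -7281 bp from its TSS where JunB, BATF and IRF4 overlapped, and IRF4 was kept there at 6.82% of the way down the Junb-deficient list. Rasgrp1, an activator of Ras, had IRF4 peaks at 3 places. That at an intronic site with JunB and BATF stood at 13.2% of its list and was missing in Junb-deficient cells, whereas the other 2 were kept. At Sh2d2a, an adaptor that binds Lck, both Junb-sufficient IRF4 peaks were missing, and the 1 Junb-deficient peak lay -35 bp from the TSS at a JunB peak. Plcg1, the phospholipase that produces diacylglycerol, kept its 2 JunB-shared IRF4 peaks, and the missing peak was a low one, at 93.8% of the list. Grap2 (GADS), which links Lat to Lcp2, had 2 IRF4 peaks, of which 1 was kept and fell from 24.7% to 46.1% of the list. Malt1 had 3 JunB peaks, and its IRF4 peak near the TSS was missing while the JunB-shared peak upstream was kept. At Themis, which tunes TCR signals in thymocytes, both IRF4 peaks were missing, and 1 Junb-deficient peak was listed at the TSS.

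**Figure D2:**
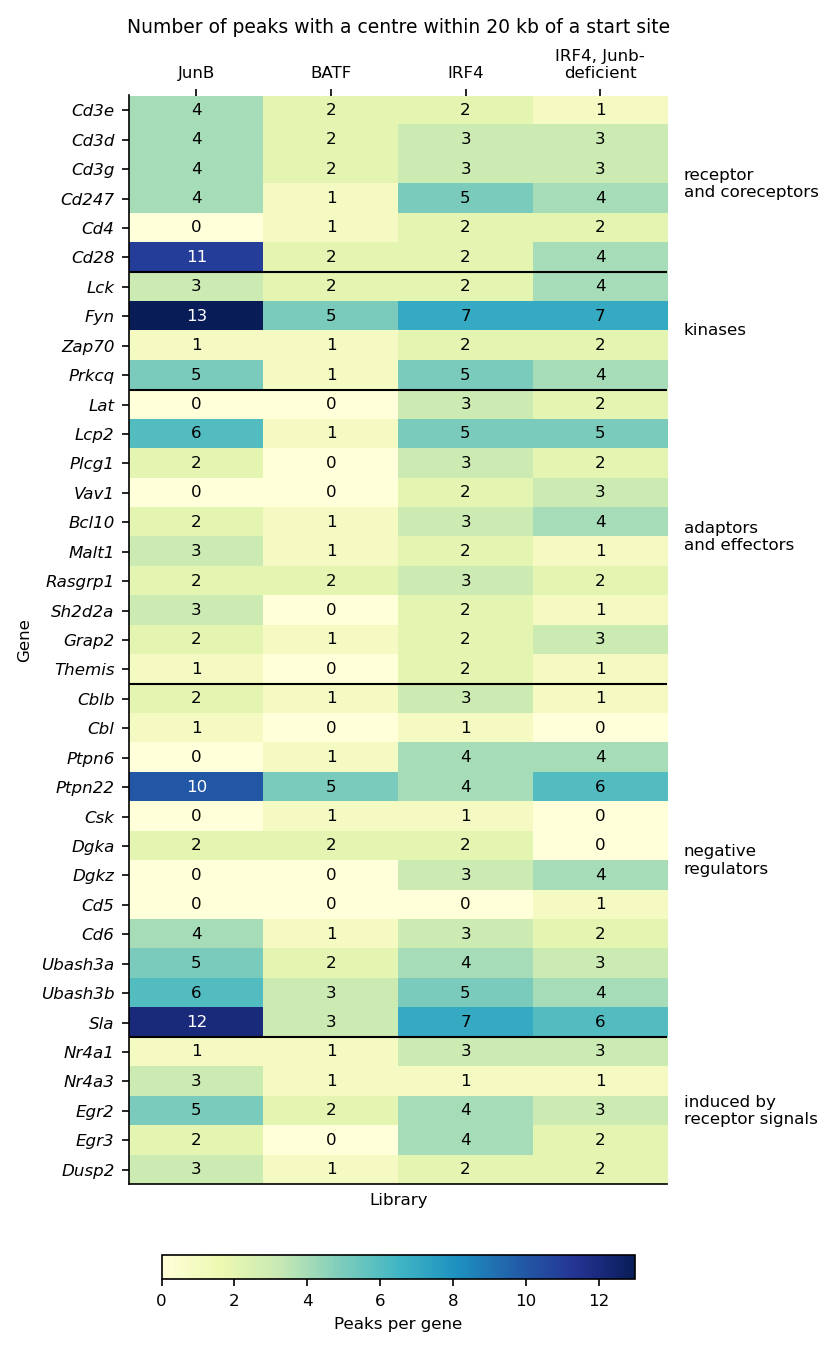
Number of peaks with a centre within 20 kb of a TSS for each of the 37 genes (rows, by role) in each of the 4 libraries (columns), with the colour scale in peaks per gene. Fyn, Sla, Cd28 and Ptpn22 have 10 to 13 JunB peaks, and 7 genes have none.

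The negative regulators included 2 of the 4 genes with 10 or more JunB peaks, a number reached by 58 of all genes (0.259%). Sla encodes SLAP, an adaptor that promotes loss of receptor chains from the surface. It had 12 JunB, 3 BATF and 7 IRF4 peaks. Its top pair of IRF4 peaks stood at 0.193% and 1.18% of the list, and 6 of 7 were kept. The gene lies within Tg, and 5 of its 12 JunB peaks were closer to a TSS of Tg than of Sla. Ptpn22, a phosphatase that acts on Lck and Zap70, had 10 JunB, 5 BATF and 4 IRF4 peaks, and IRF4 peaks numbered 6 in Junb-deficient cells. Its JunB peak at chr3:103711775-103711925 (mm9, plus strand), in an intron, is shown as an AICE site where IRF4 stood near the top of both lists, at 1.98% in Junb-sufficient and 1.34% in Junb-deficient cells. Capitals mark the AICE match.
Ptpn22 kept site: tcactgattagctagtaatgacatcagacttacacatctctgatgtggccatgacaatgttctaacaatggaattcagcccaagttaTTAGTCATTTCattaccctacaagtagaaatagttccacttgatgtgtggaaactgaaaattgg
The same gene had a JunB, BATF and IRF4 site 10214 bp downstream of a TSS, where IRF4 stood at 18.7% and was missing.

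Ubash3a and Ubash3b, the Sts proteins, which restrain TCR signals, had 5 and 6 JunB peaks. Of 4 and 5 IRF4 peaks, 1 and 2 were missing, and all 3 of these were shared with JunB. The missing peak at Ubash3a lay at its TSS, and stood at 25.4% of the list. Cblb, an E3 ubiquitin ligase that sets the need for costimulation, kept 1 of 3 IRF4 peaks, the one at a JunB and BATF site. Cd6, a surface receptor, had 4 JunB peaks and 3 IRF4 peaks, of which 1 at a JunB peak was missing at 14.8% of the list. At Cbl, Csk and Dgka no IRF4 peak was listed in Junb-deficient cells, compared with 1, 1 and 2 in Junb-sufficient cells. The peak at Csk was a low one, at 87.8% of the list. That at Cbl stood at 36.1%, and those at Dgka at 34.6% and 37.4%. Csk phosphorylates the inhibitory tyrosine of Lck, Cbl is a ubiquitin ligase and Dgka is a diacylglycerol kinase. In contrast, Ptpn6 (SHP-1) and Dgkz had no JunB peak and kept all of 4 and 3 IRF4 peaks, although 3 of the 4 at Ptpn6 were closer to the TSS of another gene. Cd5, a surface inhibitor of TCR signals, had a peak in the Junb-deficient IRF4 list alone.

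The genes induced by receptor signals all had JunB and IRF4 peaks. Egr2, a zinc finger factor, had 5 JunB, 2 BATF and 4 IRF4 peaks, and the 3 IRF4 peaks at JunB sites were kept. The upstream site -11256 bp from its TSS had JunB at place 1181, BATF at place 1913 and IRF4 at place 4177. A second Egr2 site with all 3 factors was kept but fell from 21.9% to 48.1% of the list. At Egr3, by contrast, 3 of 4 IRF4 peaks were missing, and at Nr4a1 the JunB, BATF and IRF4 site 15826 bp downstream of the TSS was missing at 14% of the list, although it lay closer to another gene. Nr4a3, which like Nr4a1 encodes an orphan nuclear receptor, and Dusp2, a phosphatase of MAP kinases, kept every IRF4 peak. At Dusp2 the site with all 3 factors -2033 bp from the TSS stood at 3.09% of the IRF4 list and at 6.14% without Junb.

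**Figure D3:**
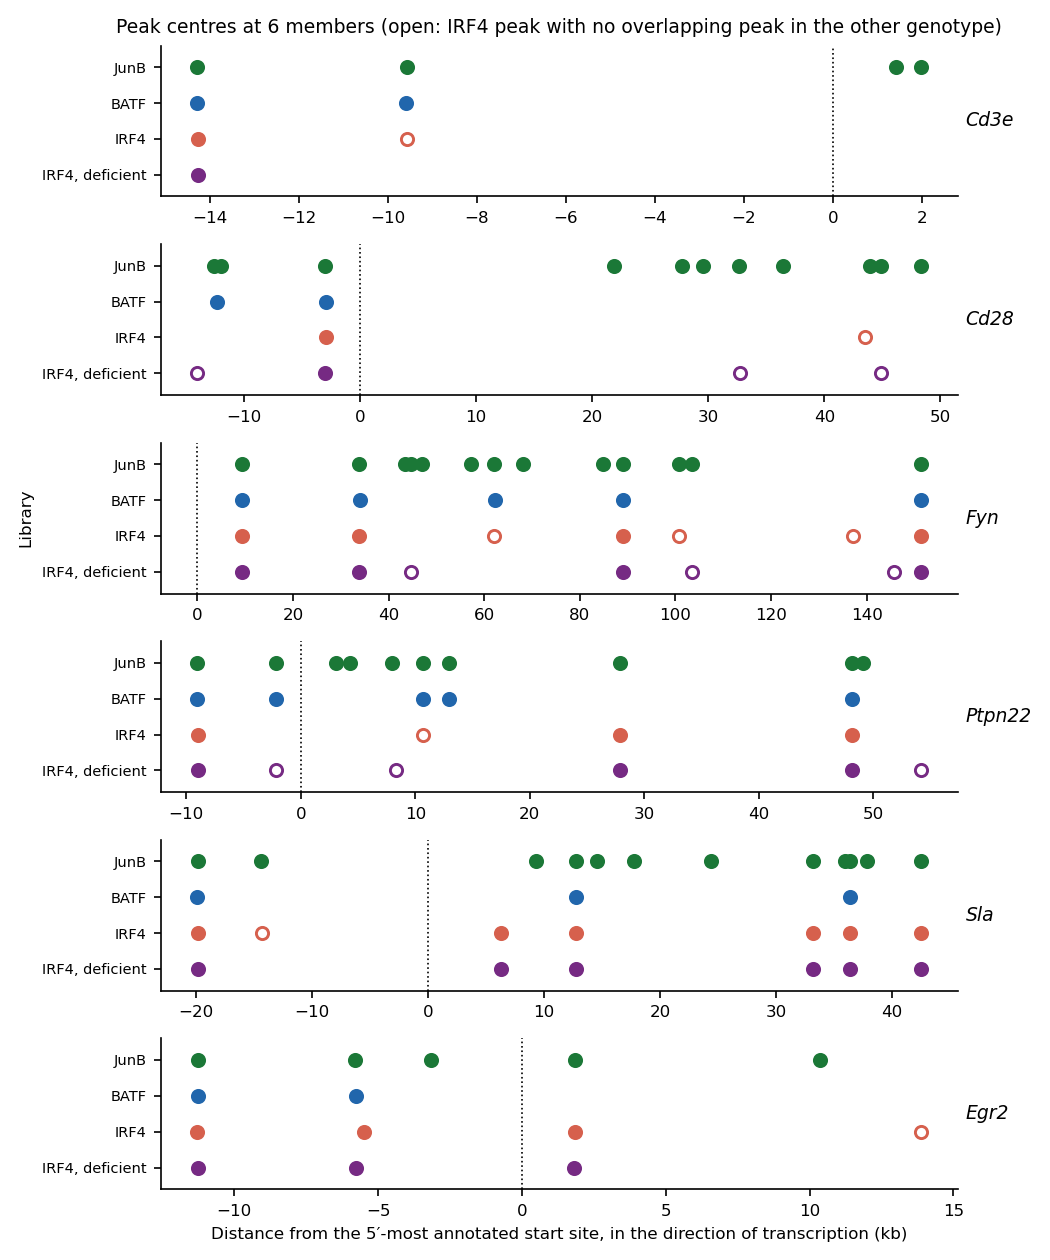
Peak centres of the 4 libraries at 6 of the genes, by distance in kb from the 5′-most annotated TSS in the direction of transcription (dotted line). Open circles are IRF4 peaks without an overlapping peak in the other genotype, and at Cd3e, Fyn and Ptpn22 open and filled IRF4 circles occur at sites with JunB and BATF.

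Overlap between the factors was then counted over all 37 genes. Of the 122 JunB peaks, 31 overlapped both BATF and IRF4 (25.4%, interval 18 to 34.1%), compared with 33.9% around all protein-coding genes, and these lay at 18 genes (48.6%, against 20.0% of all genes). A further 24 JunB peaks overlapped IRF4 alone, 8 overlapped BATF alone, and 59 overlapped neither (48.4%, against 47.5%). By role, both partners were present at 7 of 22 JunB peaks of the kinases and at 4 of 23 of the receptor chains and coreceptors. The other pathway genes had both at 24 of 87 JunB peaks (27.6%). The share at the 37 genes depended on the window. It was 25.6% within 10 kb (33.1% around all genes), 33.3% within 50 kb (34.1%) and 34.8% within 100 kb (33.5%). BATF was seldom seen without JunB. Of 47 BATF peaks, 38 overlapped JunB (80.9%, interval 66.7 to 90.9%, against 68.9%), and 3 overlapped neither JunB nor IRF4. Of the 108 IRF4 peaks, 55 overlapped JunB (50.9%, interval 41.1 to 60.7%), compared with 36.1% around all genes. These shares were not matched for place in the list. Around all genes the median place was 22.9% for IRF4 peaks at JunB and 64.7% for those off JunB. Peaks of the 37 genes stood higher than those of all genes, at a median of 27.7% against 51.3% for IRF4 and 37.0% against 51.1% for BATF.

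The peaks lay mostly away from TSSs. Only 10 of 122 JunB peaks were within 1 kb of a TSS of any protein-coding gene (8.20%, against 13.4% around all genes). For IRF4 it was 22 of 108 peaks (20.4%, against 29.2%). Within 1 kb of a TSS of the 37 genes themselves lay 8 JunB and 14 IRF4 peaks. By annotation of all coding genes, 73 JunB peaks lay in introns, 35 between genes, 4 in exons and 10 within 1 kb of some TSS. IRF4 peaks at JunB sites were near a TSS in 5 of 55 cases (9.09%, against 14.9% around all genes), and IRF4 peaks off JunB in 17 of 53 (32.1%, against 37.3%). The same contrast between JunB sites and other sites was thus seen around all genes.

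An AP-1 match within 100 bp of the centre was found in 37 of 122 JunB peaks (30.3%, interval 22.3 to 39.3%), compared with 27.4% of JunB peaks around all genes. In peaks with both partners the AP-1 share was 12 of 31 (38.7%, against 41.9%). In peaks with neither partner it was 17 of 59 (28.8%, interval 17.8 to 42.1%), compared with 15.8% for such peaks around all genes. The negative regulators gave 9 of these 17, with a share of 9 of 19 (47.4%), and the other roles had 13.3 to 33.3%. Among the other pathway genes it was 7 of 40 (17.5%). The negative regulators had an AP-1 match in 17 of 42 JunB peaks, and the kinases in 4 of 22. An AICE match was found in 5 of 122 JunB peaks (4.10%, against 2.98%), which included 3 at Ptpn22 and those at Cd3e and Fyn shown above. A match to the ETS-IRF element (GGAA, any 2 bases, GAAA), which ETS factors can bind with IRF4, was found in 3 (2.46%, against 2.68%). Both strands were searched, and a match is a description of the sequence, not a bound site.

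IRF4 peaks of Junb-sufficient cells were next sorted by whether an IRF4 peak of Junb-deficient cells overlapped them. Of 108 peaks, 71 were kept and 37 were missing (34.3%, interval 25.4 to 44.0%), compared with 33.6% around all protein-coding genes. A missing peak was seen at 26 of the 37 genes (70.3%), against 30.2% of all genes, which have fewer IRF4 peaks each. A missing peak is one that did not pass the peak caller's thresholds in the other library, and it does not measure a loss of binding, as no peak height was given. Every IRF4 peak was kept at 10 of the 36 genes with one (27.8%, against 49.9% of all genes with an IRF4 peak), namely Cd3d and Cd3g, whose peaks are the same, Lck, Zap70, Vav1, Bcl10, Ptpn6, Dgkz, Nr4a3 and Dusp2. At 5 of the 36 every peak was missing (13.9%, against 18.1%), namely Sh2d2a, Themis, Cbl, Csk and Dgka. These 5 had only 1 or 2 IRF4 peaks each. The shares of genes with every peak kept or missing were not matched for the number of IRF4 peaks per gene. That number was higher at the 37 genes.

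At JunB sites the missing share was 17 of 55 (30.9%, interval 19.1 to 44.8%), compared with 23.3% around all genes. These 17 peaks lay at 15 genes (40.5%), against 8.28% of all genes. Among genes with at least 1 JunB-shared IRF4 peak, 15 of 28 of the TCR signalling genes had one missing (53.6%), compared with 30.5% of 6076 such genes over all and 5 of 25 (20.0%) of the other pathway genes. The former had 2.00 JunB-shared IRF4 peaks each on average, the others 1.44 and 1.68. Over peaks, the other pathway genes had 5 of 42 missing (11.9%, interval 3.98 to 25.6%), and the 2 intervals overlap. Off JunB sites, 20 of 53 were missing (37.7%, against 39.4%). The excess at JunB sites depended on the window: within 10 kb of a TSS the missing share was 6 of 32 (18.8%), against 23.2% around all genes, within 50 kb it was 23.9%, against 23.4%, and within 100 kb 23.9%, against 23.7%. With the first 50% of each list it was 24.3%, against 27.8%, and with equal numbers of first-listed peaks 27.0%, against 26.9%.

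Peaks early in the list were seldom missing, so the peaks were compared at like places. When the Junb-sufficient IRF4 list was divided by place into 10 bins of equal size, 95% of its peaks were kept in bin 1 and 32.1% in bin 10. The overlap fell likewise in the other lists, from 95.8% to 40.4% for Junb-deficient with Junb-sufficient IRF4 peaks, from 89.4% to 19.3% for JunB with IRF4, and from 99.6% to 31.2% for BATF with JunB. The order of the lists is not stated in the files, and reading the place as strength is an inference from these shares. Around the 37 genes IRF4 peaks stood high, with a median place 27.7% of the way down the list, compared with 51.3% for all genes. For JunB-shared peaks the medians were 16.1% and 22.9%. If the peaks of these genes had been missing as often as those of all genes in the same bin, 25.4 of 108 would have been missing, compared with 37 found. At JunB sites the numbers were 10.4 and 17, and off JunB 14.9 and 20. In bin 1, 3 of 18 were missing (16.7%), compared with 4.69% around all genes. These 3 were the upstream Cd3e site, the intronic Fyn site shown above, and an intronic Cd28 peak off JunB at 9.02%. This comparison has no test, and the peaks of 1 locus are not independent. It was made at 20 kb only and matched place alone, not nearness to a TSS. Around all genes, 21.5% of missing and 33.1% of kept IRF4 peaks lay within 1 kb of some TSS. Of the IRF4 peaks of the 37 genes 20.4% lay there, against 29.2% around all genes.

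**Figure D4:**
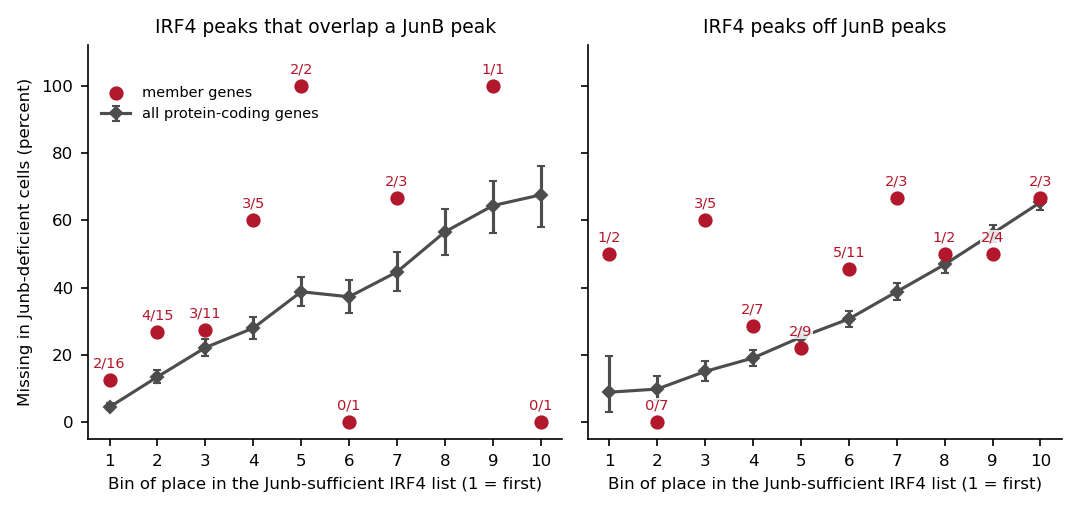
Percent of Junb-sufficient IRF4 peaks missing in Junb-deficient cells (y axis) by bin of place in the Junb-sufficient list (x axis, 10 bins of equal size, 1 the first), at JunB sites (left) and off them (right). Points are the 37 genes, labelled with missing over all peaks, and lines are all protein-coding genes with exact binomial 95% intervals. Most points rest on 11 peaks or fewer, and in bins 1 to 5 at JunB sites all 5 lie above the line.

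The kept peaks moved little on balance. Their median change of place was -1.52 percentage points, a slight move toward the top, compared with 0.109 around all genes. For kept peaks at JunB sites it was -0.767, whereas those around all genes moved down the list (1.90). Off JunB sites it was -7.58, against -2.61. Of 71 kept peaks, 5 fell by more than 20 points (7.04%, against 14.1%) and 4 rose by more than 20 points (5.63%, against 12.4%). These changes were not matched for place, and a peak in the first 20% of the list cannot rise by more than 20 points. The largest falls were at Vav1, from 49.7% to 94.1%, and at Cd6, from 59.1% to 98.8%, both off JunB. At Ptpn6 the 2 directions occurred together, since a peak nearer to the TSS of Emg1 fell from 38.4% to 70.3% and an intronic peak rose from 76.6% to 34.8%.

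**Figure D5:**
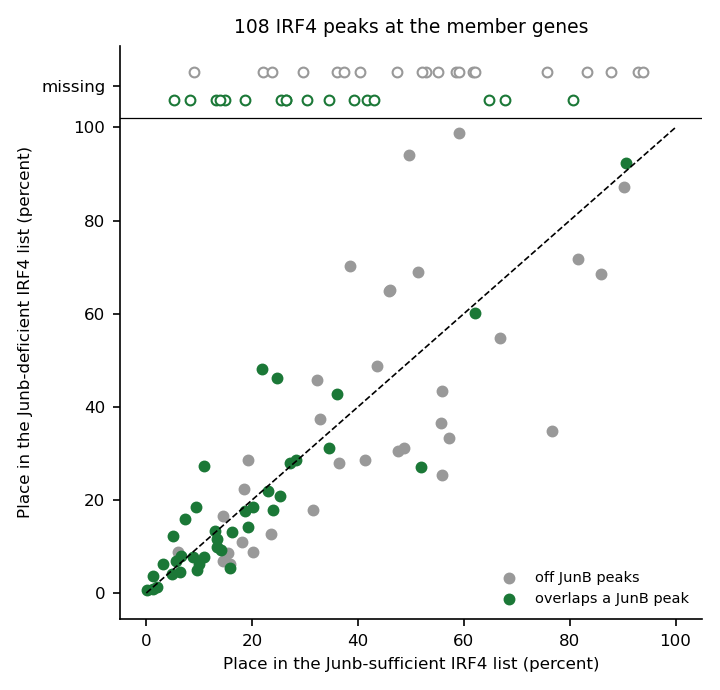
Place of the 108 IRF4 peaks in the Junb-sufficient list (x axis, percent) and in the Junb-deficient list (y axis, percent), with missing peaks as open circles above the line. Green peaks overlap JunB, and the dashed line marks equal places. Of 38 kept JunB-shared peaks, 3 lie more than 20 points from the dashed line. Of these, 2 fell (5.26%, against 17.3% around all genes) and 1 rose (2.63%, against 5.09%), shares not matched for place. Missing JunB-shared peaks are spread from 5.28% to 80.7% of the list.

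In the other direction, 26 of 97 Junb-deficient IRF4 peaks had no overlapping peak in Junb-sufficient cells (26.8%, interval 18.3 to 36.8%), compared with 30.5% around all genes, and they lay at 18 genes (48.6%, against 28.3%). At like places in the Junb-deficient list, 19.2 of the 97 would have been unmatched, compared with 26 found. The number found was thus above that at like places in both directions, and neither difference was tested. At JunB sites there were 8 of 45 (17.8%, interval 8.00 to 32.1%), compared with 8.27% around all genes. These 8 were at Cd28 and Ptpn22 and Fyn, with 2 each, and at Cd247 and Sh2d2a. The peak at Cd247, at chr1:167731731-167732335, stood at 5.00% of the Junb-deficient list, on a JunB peak at place 551 of its list. The Cd247 peak lay 1501 bp from a listed Junb-sufficient IRF4 peak. The 2 at Cd28 stood at 9.94% and 10.6%, and the other 5 between 17.6% and 39.5%. Over all 37 genes, IRF4 peaks were fewer in Junb-deficient cells at 19 genes (51.4%), more at 8 (21.6%) and as many at 10 (27.0%). Among all genes with an IRF4 peak in either genotype these shares were 30.8%, 27.2% and 42.0%. The shares were not matched for the number of IRF4 peaks per gene, which was higher at the 37 genes.

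Peaks listed in only 1 genotype often lay side by side. Of the 37 missing IRF4 peaks, 10 had an unmatched Junb-deficient IRF4 peak within 10 kb (27.0%), compared with 19.9% around all genes. These were at 8 genes (Grap2, Nr4a1, Cd28, Ptpn22, Prkcq, Fyn, Egr3 and Ubash3b), at distances of 746 to 8603 bp, a set chosen after the values were seen. The pair at Grap2 was closer than the least distance of 1210 bp between peaks of the Junb-deficient list, so both could not have been listed there. At Cd28 the Junb-sufficient peak at 9.02% of its list was 1429 bp from the Junb-deficient peak at 10.6%. Whether such pairs are moved peaks or separate sites cannot be told apart from these lists.

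The settings of the peak caller differed between libraries in ways that touch these counts. JunB peaks were narrower than those of the other libraries. The tag threshold for a peak was 10 for JunB and 19 for BATF and both IRF4 libraries. A filter against the surrounding 10 kb removed 36.2 to 37.4% of the candidate peaks of BATF and both IRF4 libraries, but 5.25% for JunB. The part of this filter in the missing peaks and in the JunB peaks without partners was not tested. Nor was that of the lower JunB threshold in the JunB peaks without partners. Of the IRF4 peaks counted here, 20 of 108 had their nearest TSS in another gene, and without such peaks the missing share was 35.2% and that at JunB sites 32.7%.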

How the data were processed

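JunB, BATF and IRF4 ChIP-seq of activated Treg cells was analysed from 4 peak lists, 1 library per condition. Reads were mapped by the authors with Bowtie2 on mm9, and peaks were called in each library by itself with HOMER (version 4.8 per the submitters' notes) without a control library, at a false discovery rate of 0.001, 4-fold over the surrounding 10 kb and at most 1 tag per bp. The deposited score is 1 for every peak, so that it carries no height, and the place in the list was read as strength, an inference, since the headers do not state the order. Positions were counted from 1.

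TSSs (69976 positions) and sequences came from the GENCODE annotation and genome of the same build. Peaks sharing at least 1 bp were called overlapping. An IRF4 peak was kept if a peak of the other genotype overlapped it. Of 34 other pathway genes, 33 matched by symbol. Intervals are Clopper-Pearson. Motifs were matched within 100 bp of peak centres. Positions were given for at most 12 best-placed JunB peaks with BATF and IRF4 and 12 JunB-shared missing IRF4 peaks in the first 50% of their list, and for all Junb-deficient-only IRF4 peaks at JunB sites. The genes and lists were chosen with earlier results of these data known. Samples were grouped by their titles. No test was made, since 1 list per condition was analysed, although the study states that its ChIP-seq was done 2 times. SciPy 1.17.1, NumPy 2.4.6 and matplotlib 3.10.9 under Python 3.11.15 were used, and the procedures were tested on simulated data.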

Additional observations from a re-analysis of the deposited data

How the results depend on the processing

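Over 130 recomputed values, 107 stayed within their interval or 1.5 times the count, and 23 did not. With a window of 10 kb there were 78 JunB, 27 BATF, 62 Junb-sufficient and 61 Junb-deficient IRF4 peaks at the genes, and the missing share of IRF4 peaks was 24.2%, or 18.8% at JunB sites. Within 50 kb there were 222, 98, 206 and 203 peaks, and within 100 kb 313, 150, 340 and 328. At 100 kb, 34.8% of JunB peaks overlapped both partners (33.5% around all genes). With 1 TSS per gene there were 80 JunB peaks, and in the first 50% of each list 78 JunB and 30 BATF peaks. With equal numbers of first-listed peaks in each library, 38.7% of JunB peaks overlapped both partners (48.4% around all genes). With centres within 100 bp, 37.1% of Junb-deficient IRF4 peaks had no Junb-sufficient partner. With BATF and IRF4 exchanged, as the antibody field has it, there were 108 BATF and 47 Junb-sufficient IRF4 peaks, 69.1% of Junb-deficient IRF4 peaks had no partner, and the missing share was 36.2% (25.0% around all genes), or 34.2% (20.3%) at JunB sites. The causes were not tested.

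The missing share stood below that of all genes within 10 kb, 50 kb and 100 kb, with centres within 100 bp and in the first 50% of each list. The JunB-shared missing share did so within 10 kb and in the first 50% of each list. Without the 5 induced genes it was 31.2%, and without Fyn 30.6%. No paired analysis was possible because 1 library per condition was analysed and no test was made. The depth of 1 library per condition limits every comparison between genotypes.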
